A study of Caenorhabditis elegans with 6 samples.

Results

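Superoxide dismutases, catalases and the peroxiredoxin prdx-2 are among the enzymes with which Caenorhabditis elegans removes superoxide and hydrogen peroxide. Their 9 genes, taken by symbol (sod-1 to sod-5, ctl-1 to ctl-3 and prdx-2), were followed among 18811 genes measured by RNA sequencing of whole worms. Synchronized adults had been grown at 20 °C and moved at larval stage 4 onto plates with 1 of 2 Escherichia coli diets. The first group, with 3 libraries, ate strain BW25113, a common laboratory strain, and the other, also with 3 libraries, ate a mutant strain named purE. In E. coli, purE codes for a step of purine biosynthesis; how the strain was altered is not described in the labels. The labels give no worm strain, no number of animals and no adult age, and nothing in them says that the replicates were separate worm cultures, so p-values measure only the spread between these samples.

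Superoxide dismutases turn superoxide, a by-product of respiration and of oxidase enzymes, into hydrogen peroxide and oxygen. Catalases then break hydrogen peroxide down to water and oxygen, and peroxiredoxins reduce it with a reactive cysteine that is restored by thioredoxin. In the worm, sod-1 and sod-5 encode copper/zinc enzymes of the cytosol, sod-2 and sod-3 manganese enzymes of the mitochondrion and sod-4 an extracellular copper/zinc enzyme. The catalase ctl-1 is cytosolic, ctl-2 is peroxisomal, and prdx-2 is a cytosolic peroxiredoxin. The gene sod-3 is widely used as a reporter of DAF-16, the transcription factor restrained by insulin/IGF-1 signalling.

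Total estimated counts per library ran from 21880627 to 22607939. The first principal component of log2 CPM (counts scaled to library size) held 69.3% of the variance and set purE replicates 2 and 3 apart from the other 4 libraries, with purE replicate 1 nearest to the BW25113 libraries. Of the lists of markers for adult, intestine, muscle, neuron and germline cells, no measured member was without reads in all libraries. Adult markers (col-19 and 6 yolk protein genes) summed to between 61260 and 78070 CPM on BW25113 and between 32160 and 62720 CPM on purE. Summed sperm markers, with 12 of 20 measured, stood at 111 to 195 CPM on BW25113 and at 253 to 2165 CPM on purE. All 9 tested sperm markers, msp-3 (log2 fold change of 3.06) and msp-31 (3.28) among them, were higher on purE at an unadjusted edgeR p under 0.05. So were 12.7% of all genes tested, and the edgeR adjusted p was 0.129 for msp-3 and for msp-31. Summed collagens of the moult, with 15 of 16 measured, spanned 520 to 1873 CPM on BW25113 and 262 to 14300 CPM on purE. Of these 15 collagens, 12 had positive log2 fold changes, and 8 were higher and 2 lower at an unadjusted edgeR p under 0.05. Over all genes tested, 51.6% were positive, and 12.7% were higher and 3.81% lower at that threshold. The 2 lower, dpy-17 (-4.37) and dpy-14 (-4.10), were highest in BW25113 replicate 1 and lower in every purE library than in any BW25113 library (edgeR adjusted p 0.129 for both). Such a separation with purE below held for 6.68% of all genes tested. Early embryo markers spanned 21.5 to 36.0 CPM on BW25113 and 6.39 to 20.1 CPM on purE. In whole-worm RNA, a change in the number of cells of a type and a change in RNA per cell cannot be told apart.

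None of the 8 members that passed edgeR's default low-count filter was called different between the diets. In edgeR's quasi-likelihood test with Benjamini-Hochberg adjustment, 0 of the 8 tested members passed an adjusted p of 0.05, where 0% of the 12144 genes tested did, and the smallest adjusted p among members was 0.286. DESeq2 called 0 members, against 7.79% of all genes, and limma-voom called 0 members and 0% of all genes. At an unadjusted edgeR p under 0.05 there was 1 member, sod-2, which was higher on purE, against 16.5% of all genes tested in either direction and 12.7% in that direction. Without purE replicate 1, edgeR called 14.5% and DESeq2 20.1% of all genes, and neither called any of the 8 members. Of the 8, 4 had positive and 4 had negative log2 fold changes, with a median of 0.03, the same to 2 decimals as the median of 0.03 over all genes. The ninth gene, sod-5, had too few counts to pass the default filter.

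The members differed widely in level. In FPKM, which scales counts to gene length and library size and so allows genes to be compared, prdx-2 led with 1518 ± 469 on BW25113 and 1396 ± 299 on purE (SD, n = 3), rank 158 of all genes by mean. The cytosolic sod-1 followed with 395 ± 97.7 and 397 ± 43.3 FPKM, and sod-2 with 57.5 ± 0.951 and 76.9 ± 18.8 FPKM. Then came the catalases ctl-2 (38.3 ± 19.2 and 29.9 ± 4.13 FPKM), ctl-1 (32.8 ± 14.1 and 27.7 ± 4.68 FPKM) and ctl-3 (25.5 ± 7.15 and 15.2 ± 2.90 FPKM). At the low end stood the extracellular sod-4 (6.26 ± 0.521 and 7.54 ± 2.02 FPKM), the mitochondrial sod-3 (5.41 ± 3.17 and 6.10 ± 0.399 FPKM) and sod-5 (0.257 ± 0.15 and 0.143 ± 0.055 FPKM).

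The order was not equally firm along its length. The ranges over the 6 libraries did not touch between prdx-2 and sod-1, sod-1 and sod-2, sod-2 and ctl-2, ctl-3 and sod-4, or sod-3 and sod-5. The gap between sod-2 and ctl-2 was narrow, from a lowest 56.5 FPKM to a highest 56.0 FPKM, with a smallest ratio of 1.04 within a library. Ranges overlapped between ctl-2 and ctl-1, although ctl-2 was higher in 6 of 6 libraries, by a median ratio of 1.09. They also overlapped between ctl-1 and ctl-3, with ctl-1 higher in 5 of 6 libraries, and between sod-4 and sod-3, with sod-4 higher in 4 of 6. Levels of sod-4 and sod-3 therefore did not differ beyond their spread.

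**Figure D1:**
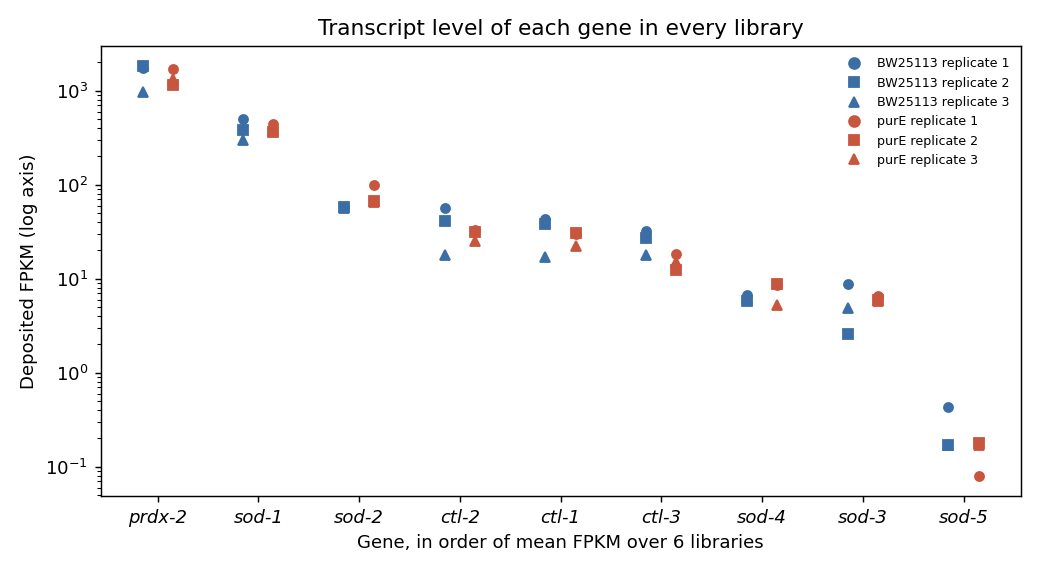
Deposited FPKM of each gene (vertical log axis) in the 6 libraries, ordered by mean level from left to right, with BW25113 libraries in blue and purE libraries in red and a symbol per replicate number. The genes run from prdx-2, between 978 and 1814 FPKM, down to sod-5, between 0.08 and 0.43 FPKM.

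Among superoxide dismutases, sod-1 supplied most of the transcript on either diet. Its share of the summed FPKM of the 5 genes was 84.7% ± 2.74 on BW25113 and 81.5% ± 2.01 on purE (SD, n = 3), with ranges of 81.6% to 87.0% and 79.6% to 83.6% that overlapped. The share of sod-2 was 12.8% ± 2.54 and 15.6% ± 1.86, and the other 3 genes each stayed under 2% in every library. The summed FPKM of the 5 was 464 ± 101 on BW25113 and 488 ± 61.9 on purE.

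The gene sod-1 (chromosome II, 6972706 to 6973887 in WBcel235, reverse strand) stood at 331, 265 and 172 CPM in BW25113 replicates 1, 2 and 3 and at 246, 277 and 306 CPM in purE replicates 1, 2 and 3. All purE values lay inside the BW25113 range. The log2 fold change, purE over BW25113, was 0.11 ± 0.29 (SE) with an edgeR adjusted p of 0.846, and its 95% interval of -0.56 to 0.78 corresponds to 0.678-fold to 1.72-fold. The sign was not fixed by these libraries, since the value was -0.20 without BW25113 replicate 3, the lowest library, and -0.02 in DESeq2 without purE replicate 3.

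In the edgeR fit of all 6 libraries, the member with the smallest p was sod-2, the main mitochondrial manganese enzyme (chromosome I, 8434550 to 8435807, forward strand). In DESeq2 with all 6 libraries it was ctl-3, at an unadjusted p of 0.0487 (adjusted p 0.299). Levels of sod-2 were 46.7, 47.5 and 38.7 CPM on BW25113 and 65.5, 62.2 and 61.4 CPM on purE. Every purE library lay above every BW25113 library, and purE replicate 1, which lay nearest to the BW25113 libraries over the whole transcriptome, held the highest value. Of the 8 tested members, sod-2 was the 1 that separated in this direction, where 13.1% of all genes tested did, and 0 separated with purE below, against 6.68% of all genes. The means were 44.3 ± 4.85 CPM for BW25113 and 63.0 ± 2.16 CPM for purE (SD, n = 3), or 1.42-fold higher on purE, with an interval of 1.01-fold to 2.00-fold. Deposited FPKM separated as well, at 58.4, 57.7 and 56.5 on BW25113 and 98.6, 67.4 and 64.8 on purE.

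In edgeR the log2 fold change of sod-2 was 0.51 ± 0.22 (SE) with an unadjusted p of 0.0440 and an adjusted p of 0.286, so it did not pass. The unadjusted p was 0.0985 in DESeq2, 0.171 with scaling to library size only, and between 0.0689 and 0.206 in edgeR when any 1 library was left out. In edgeR it was 0.0302 with at least 1 CPM in 3 libraries and 0.0394 with upper-quartile scaling (adjusted p 0.267 and 0.2755). It was 0.0416 in robust edgeR and 0.0392 in limma-voom (adjusted p 0.280 and 0.368). Summed body wall muscle markers, with 8 of 8 measured, also lay higher on purE, at 10520 to 16750 CPM against 9102 to 10410 CPM. The summed sperm markers also did not overlap between the diets, although some single genes of both lists did. The part of these differences in the sod-2 values was not tested. The gene lies wholly within the span of dpt-1, which runs on the opposite strand, with 21 exonic bases shared. The strand setting of the counts is not given in the sources used here. Values of dpt-1 were 20.5 to 24.2 CPM on BW25113 and 18.3 to 28.1 CPM on purE, with a log2 fold change of -0.06 ± 0.27 and an edgeR adjusted p of 0.913.

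The reporter gene sod-3 (chromosome X, 17092753 to 17094306, forward strand) was low and scattered on BW25113. Its estimated counts there were 155, 45 and 85, equal to 6.94, 2.08 and 3.24 CPM, against 116, 103 and 100 counts or 4.26, 5.44 and 5.35 CPM on purE. The BW25113 libraries alone spanned a wider range than the purE libraries, which lay between BW25113 replicates 3 and 1. The exact Poisson 95% intervals of the BW25113 counts, 132 to 181, 32.8 to 60.2 and 67.9 to 105, did not touch, so the spread on BW25113 was beyond counting error. The log2 fold change was 0.30 ± 0.47 with an edgeR adjusted p of 0.743 and an interval of -0.78 to 1.37, or 0.581-fold to 2.59-fold. Leaving out BW25113 replicate 1 gave 0.89, leaving out replicate 3 of that diet gave 0.07 and leaving out its replicate 2 gave -0.13, so neither size nor sign was fixed by these libraries.

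The extracellular enzyme gene sod-4 (chromosome III, 9496884 to 9500375, reverse strand) stood at 5.15, 4.47 and 4.12 CPM on BW25113 and at 5.48, 7.71 and 4.71 CPM on purE. The groups overlapped, and purE replicate 2 was the highest library. The log2 fold change was 0.38 ± 0.34 with an edgeR adjusted p of 0.571, or 0.16 without purE replicate 2. Its exons share 175 bases with ctr-9 on the opposite strand, which stood at 13.2, 18.9 and 29.3 CPM on BW25113 and at 15.99, 8.13 and 14.8 CPM on purE. Exons of sod-1 share 85 bases with C15F1.13, and those of sod-3 share 65 with C08A9.3 and 24 with lido-1, all on the opposite strand. For sod-5 (chromosome II, 4417633 to 4419130, forward strand), a minor cytosolic enzyme, the estimated counts were 5, 2 and 2 on BW25113 and 1, 2 and 2 on purE. Only BW25113 replicate 1 exceeded 3 counts, the upper limit for a gene with no read (0.133 to 0.137 CPM per library, counting error only), so a difference between the diets was not detectable at this depth.

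The 3 catalase genes lie side by side on the reverse strand of chromosome II, ctl-2 at 14299556 to 14302027, ctl-1 at 14303568 to 14306260 and ctl-3 at 14307798 to 14310779, with 1540 and 1537 bases between neighbours. They were the 3 members whose deposited counts were not whole numbers (to within 1e-06), as in ctl-2 with 1967.48 counts in BW25113 replicate 1. The sum of the 3 genes came out whole, within 0.02, in 6 of 6 libraries, whereas sums of pairs did so in at most 1. Reads shared between the genes had therefore been divided within this trio, so values of the single genes are uncertain while the sum does not depend on the division.

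That sum held 4564, 3664 and 1833 estimated counts on BW25113, or 204, 169 and 69.9 CPM, and 2851, 2511 and 2149 counts on purE, or 105, 133 and 115 CPM. BW25113 replicates 1 and 2 were the highest libraries and BW25113 replicate 3 the lowest, with all purE libraries between them. Means were 148 ± 69.7 CPM for BW25113 and 117 ± 14.1 CPM for purE (SD, n = 3). With the 3 genes added into 1 row of the edgeR fit, an alternative chosen after seeing the data, the log2 fold change was -0.33 ± 0.38 with an adjusted p of 0.644 and an interval of -1.19 to 0.53. Without BW25113 replicate 3 it was -0.75 ± 0.24 with an edgeR adjusted p of 0.220, and without BW25113 replicate 1 it was -0.05 (range of adjusted p over the alternatives for this sum 0.220 to 0.955).

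**Figure D2:**
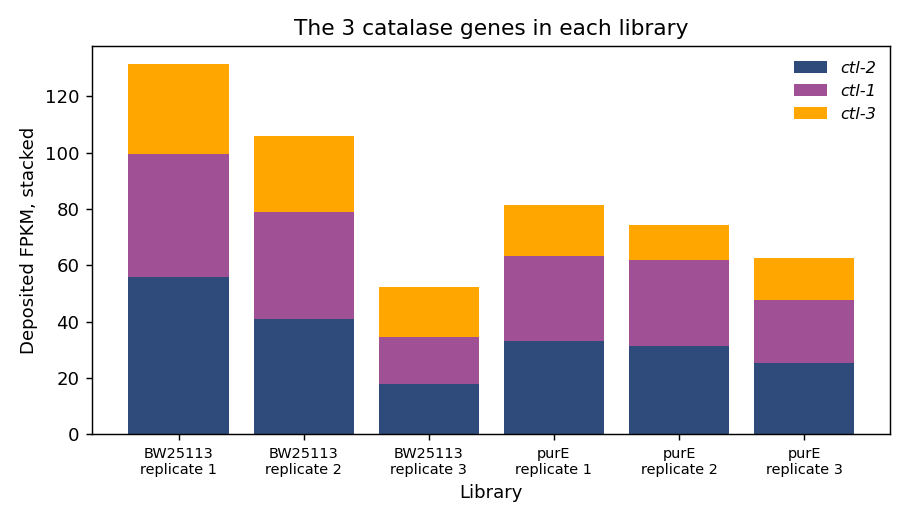
Deposited FPKM of ctl-2, ctl-1 and ctl-3 stacked for each library (vertical axis from 0). The stack was highest in BW25113 replicate 1 at 131 FPKM and lowest in BW25113 replicate 3 at 52.5 FPKM, and the purE libraries lay between 62.6 and 81.4 FPKM.

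Within the cluster, ctl-3 stood furthest from 0. It was at 50.4, 43.8 and 24.1 CPM on BW25113 and at 23.8, 22.5 and 28.1 CPM on purE. BW25113 replicates 1 and 2 lay above all purE libraries, but BW25113 replicate 3 lay within their range. Means were 39.4 ± 13.7 and 24.8 ± 2.93 CPM (SD, n = 3), 1.59-fold lower on purE with an interval from 2.61-fold lower to 1.03-fold higher, and the log2 fold change was -0.67 ± 0.31 with an edgeR adjusted p of 0.338. Without BW25113 replicate 3 it was -1.01 ± 0.25 with an edgeR adjusted p of 0.216. DESeq2 without that library, an alternative chosen after seeing the data, called ctl-3 lower at an adjusted p of 0.0218, where it called 7.73% of all genes and 1.68% as lower, and the adjusted p of ctl-3 over all alternatives ran from 0.0218 to 0.693. Its share of catalase FPKM was 24.2%, 25.4% and 33.8% on BW25113 and 22.3%, 16.6% and 24.0% on purE. The purE shares all lay below the BW25113 shares, a description that rests on the authors' division of shared reads.

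The peroxisomal ctl-2 stood at 88.0, 66.3 and 24.1 CPM on BW25113 and at 43.3, 56.8 and 47.0 CPM on purE. The cytosolic ctl-1 stood at 65.8, 59.0 and 21.7 CPM on BW25113 and at 37.7, 53.3 and 39.8 CPM on purE. In both, the purE libraries lay between BW25113 replicates 2 and 3. The log2 fold changes were -0.28 ± 0.42 for ctl-2 and -0.16 ± 0.40 for ctl-1, with edgeR adjusted p-values of 0.730 and 0.833, and both were above 0, at 0.09 and 0.08, without BW25113 replicate 1. Exons of ctl-2 share 65 bases with Y54G11A.7 on the opposite strand. That gene stood at 11.6, 10.3 and 16.1 CPM on BW25113 and at 18.0, 24.9 and 22.9 CPM on purE. Such a separation with purE above held for 13.1% of all genes tested, and its part in the ctl-2 counts was not tested.

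The peroxiredoxin gene prdx-2 (chromosome II, 5378195 to 5379631, forward strand) was the most abundant member in every library. It stood at 1510, 1598 and 717 CPM on BW25113 and at 1224, 1124 and 1345 CPM on purE. The purE libraries again lay inside the BW25113 range, which BW25113 replicate 3 opened downward. The log2 fold change was -0.05 ± 0.34 with an edgeR adjusted p of 0.940 and an interval of -0.82 to 0.72, and it became 0.03 in limma-voom. Leaving out BW25113 replicate 1 gave 0.06, leaving out BW25113 replicate 2 gave 0.04, and leaving out purE replicate 2 gave 0.02. Without BW25113 replicate 3 it was -0.42.

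**Figure D3:**
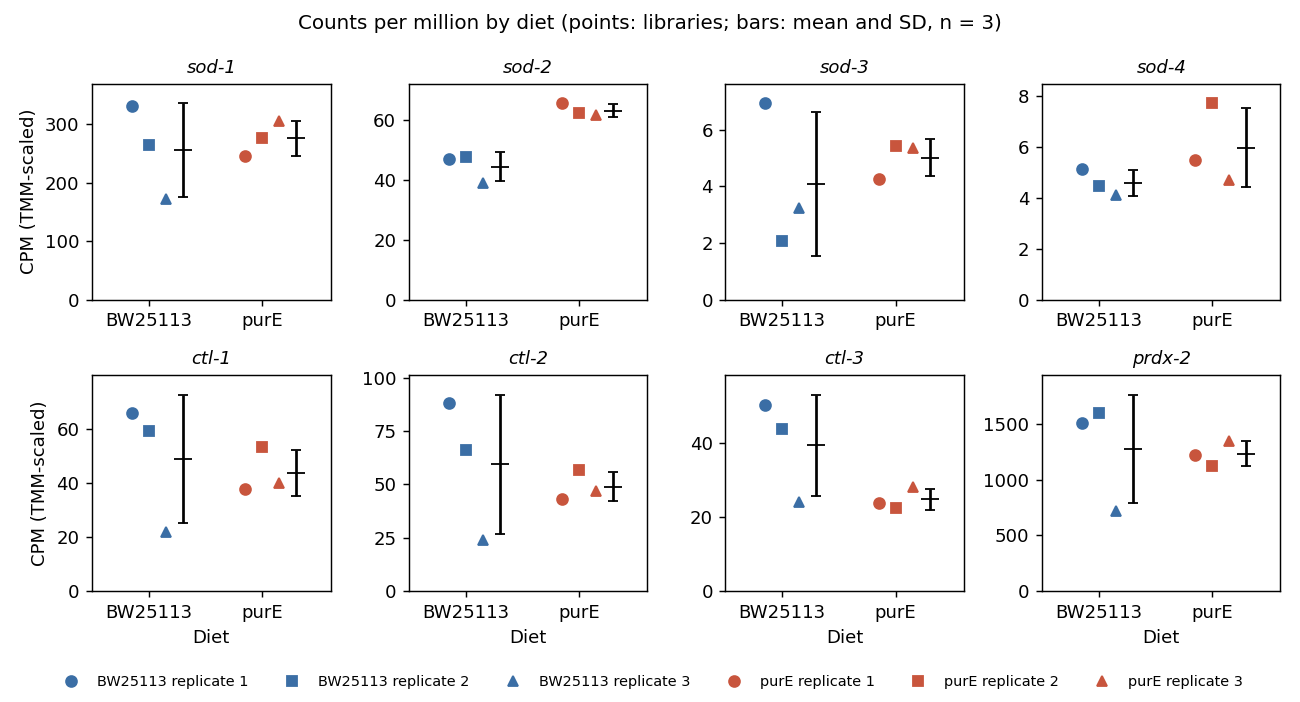
CPM of the 8 tested genes by diet, each panel with its own linear axis from 0, with a symbol per library and the mean with its SD (n = 3) beside the points. For sod-2 the groups do not overlap, at 38.7 to 47.5 against 61.4 to 65.5 CPM, and for the other 7 genes they do.

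**Figure D4:**
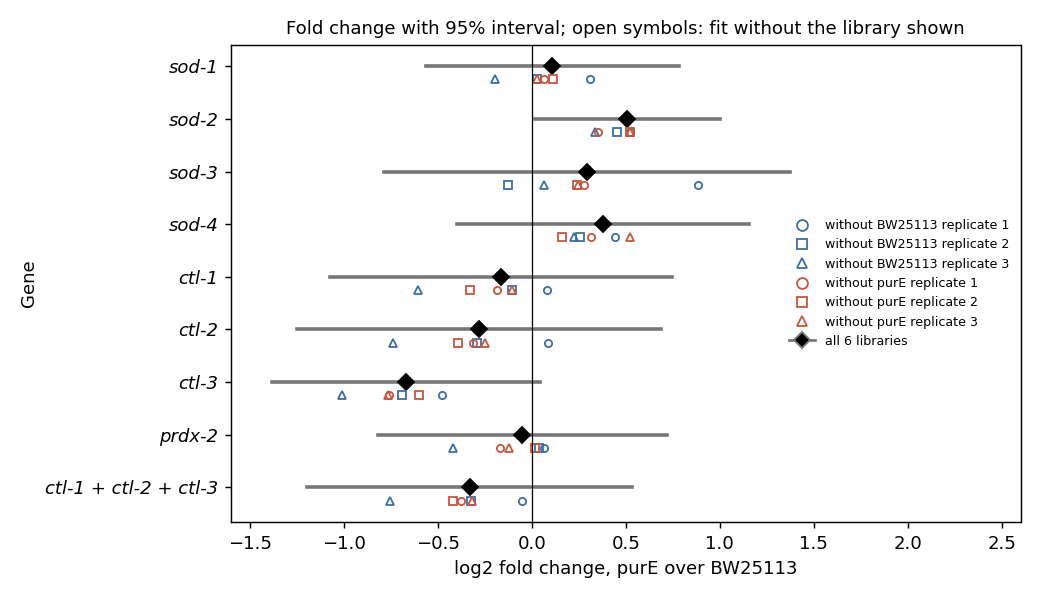
Log2 fold change of each tested gene and of the summed catalases, purE over BW25113 (diamond), with its 95% interval (bar), and the same fit with 1 library left out (open symbols). Apart from sod-2, at 0.02 to 1.00, each interval includes 0, and leaving out BW25113 replicate 3 gives the lowest value for sod-1, sod-2, the catalases and prdx-2.

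Spread between replicates differed by diet across the members. The SD of log2 CPM was smaller on purE than on BW25113 for 7 of the 8, all but sod-4, against 40.04% of all genes tested. The coefficient of variation on BW25113 was 54.7% for ctl-2, 48.5% for ctl-1, 38% for prdx-2 and 62.1% for sod-3, against 14.2%, 19.4%, 8.99% and 13% on purE. The largest counting error of a library was 3.98%, 4.19%, 0.729% and 14.9% of the count for these genes in that order, each below the BW25113 spread. For sod-3 that library was BW25113 replicate 2, with 45 counts, whereas the purE libraries held 100 to 116 counts. BW25113 replicate 3 was the lowest of the BW25113 libraries for 7 of the 8 members, where it was so for 39.4% of all genes, and the lowest of all 6 for 6 of the 8, against 21.7% of all genes. The TMM scaling factor of that library was 1.17, within a range of 0.844 to 1.20. At 0.12, the within-group SD of sod-2 was small, with 1.51% of all genes below it, whereas those of ctl-2, ctl-1 and sod-3 were 0.71, 0.65 and 0.62, with 79.8%, 75.3% and 73.0% of genes below them. These spreads depend on the TMM scaling. In deposited FPKM, which is not TMM-scaled, the SD of sod-2 was 0.951 on BW25113 and 18.8 on purE, so the larger was on purE.

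Among themselves the members followed different profiles over the 6 libraries. Likeness was measured as the root mean square difference of log2 CPM after centring each gene on its mean over the 6 libraries, a description of libraries that share depth and scaling. The closest pair was ctl-1 and ctl-2, at 0.10, which share divided reads, followed by sod-1 and prdx-2 at 0.19 and sod-2 and sod-4 at 0.24. The furthest pair was sod-3 and ctl-3 at 0.74. Of 7399 other genes averaging 5 CPM or more, those most like sod-1 were C04F12.5 (0.05) and mlc-2 (0.06), and those most like prdx-2 were hsp-25 (0.07) and F08D12.3 (0.09). For sod-2 they were clik-1 (0.07) and ZK1321.4 (0.09), and for sod-4 C37H5.13 (0.06) and nck-1 (0.08). For the catalases they were spp-8 (0.13) and acdh-10 (0.16) beside ctl-1, lec-8 (0.16) and daf-22 (0.16) beside ctl-2, and lsm-5 (0.11) and F48E8.4 (0.12) beside ctl-3. The profile of sod-3 was the least shared, with only F58B4.5 within 0.2 (0.19) and C29G2.6 next (0.21), whereas 330 genes lay within 0.2 of sod-1.

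Other genes of redox metabolism were described from 7 lists with 61 genes, of which 55 were tested. None was called by edgeR, the smallest adjusted p being 0.161, and 35 had positive and 20 negative log2 fold changes, with a median of 0.11 against 0.03 over all genes, of which 51.6% were positive. At an unadjusted p under 0.05 there were 4 higher and 1 lower, or 9.09% of the 55, against 16.5% of all genes. DESeq2 called 1, trx-3, against 7.79% of all genes. Without purE replicate 1, DESeq2 called 6 of the 55 (trx-3, mlt-7, smf-3 and skpo-2 higher, skpo-1 and prx-14 lower), against 20.1% of all genes, and those outside the naming rule (skpo-1, skpo-2 and prx-14) are named after their values were seen.

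Further peroxide-removing enzymes had 8 of 9 tested genes positive and a median of 0.19, with none at an unadjusted p under 0.05. Their gene of smallest p was gpx-4, of the glutathione peroxidase family, at 1.25, 0.692 and 0.496 CPM on BW25113 and 0.441, 0.264 and 0.535 CPM on purE. Its groups overlapped, with a log2 fold change of -0.96 ± 0.53 and an edgeR adjusted p of 0.406. Thioredoxins and their reductases, which recycle peroxiredoxins, had 3 of 5 tested genes positive and a median of 0.35. The intestinal thioredoxin trx-3 stood at 1.70, 1.52 and 1.18 CPM on BW25113 and at 1.36, 22.7 and 5.99 CPM on purE, so purE replicates 2 and 3 were high and purE replicate 1 lay among the BW25113 libraries. Its log2 fold change was 2.76 ± 0.87, and its adjusted p was 0.161 by edgeR, which did not call it, but 0.00863 by DESeq2. Leaving out purE replicate 1 gave 3.17 ± 0.54, which edgeR called (adjusted p 0.00664) among the 14.5% of all genes named before. DESeq2 called it as well when purE replicate 1 (adjusted p 9.996e-07) or purE replicate 3 (0.0376) was left out, and not when purE replicate 2 or any BW25113 library was. Summed collagens of the moult and summed sperm markers were likewise highest in purE replicate 2, at 14300 and 2165 CPM, and their part in the trx-3 values was not tested.

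Glutathione synthesis, glutathione reductase, glutaredoxins and a methionine sulfoxide reductase had 5 of 9 positive and a median of 0.04. The glutaredoxin glrx-10 stood at 49.1, 48.1 and 44.5 CPM on BW25113 and at 56.9, 84.6 and 78.4 CPM on purE. All its purE values lay above its BW25113 values, as for 13.1% of all genes tested. The log2 fold change was 0.63 ± 0.24 with an edgeR adjusted p of 0.226. Oxidases and haem peroxidases of the extracellular matrix, which make and use hydrogen peroxide to crosslink cuticle, had 6 of 7 positive and the largest median of the 7 lists, 1.02, without a call in edgeR. The cuticle peroxidase mlt-7, needed in moulting, stood at 5.19, 4.34 and 7.71 CPM on BW25113 and at 7.06, 19.2 and 11.5 CPM on purE. Its purE replicate 1 lay inside the BW25113 range, and its log2 fold change was 1.12 ± 0.43 with an edgeR adjusted p of 0.234. DESeq2 called it when purE replicate 1 was left out (1.28, adjusted p 0.0224). The summed moult collagens were highest in the same library, purE replicate 2, unlike dpy-10, dpy-14 and dpy-17 singly. The part of the moult collagens in this list was not tested.

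Peroxisome assembly factors, which import ctl-2 and other matrix enzymes, had 6 of 10 positive and a median of 0.03, with prx-1 at 0.61 ± 0.48 and an edgeR adjusted p of 0.526. Copper and manganese transport, which supplies the metals of superoxide dismutases, had 3 of 4 positive and a median of 0.68. The metal transporter smf-3 stood at 0.940, 1.94 and 2.82 CPM on BW25113 and at 2.21, 9.56 and 3.90 CPM on purE, overlapping, with a log2 fold change of 1.45 ± 0.63 and an edgeR adjusted p of 0.295. DESeq2 called it when purE replicate 1 was left out (1.69, adjusted p 0.0295). Regulators of oxidative stress genes had 4 of 11 positive and a median of -0.10. The insulin/IGF-1 receptor gene daf-2 stood at 17.1, 18.0 and 25.9 CPM on BW25113 and at 14.2, 8.50 and 14.3 CPM on purE. Every daf-2 value on purE lay below every value on BW25113, as for 6.68% of all genes tested. Its log2 fold change was -0.72 ± 0.31 with an unadjusted p of 0.0491 and an edgeR adjusted p of 0.300.

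**Figure D5:**
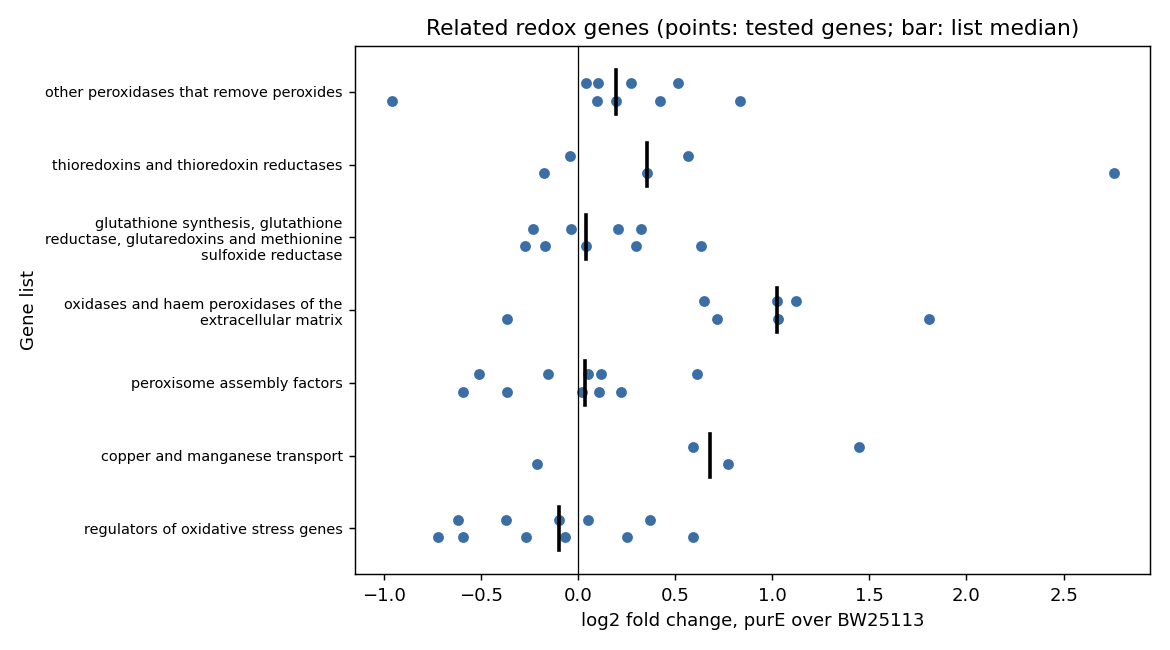
Log2 fold change, purE over BW25113, of the 55 tested genes in the 7 lists of related redox genes (points), with the median of each list (bar). The medians run from -0.10 for regulators to 1.02 for matrix oxidases and peroxidases, and trx-3 is the outermost point at 2.76.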

How the data were processed

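The authors deposited an estimated count and an FPKM value for each gene and library, named so per the file headers. Between 91.0% and 92.2% of a library's counts were whole numbers to within 1e-06, and sums of catalase counts were read as whole to within 0.02. WBcel235 is the build named in the submitters' processing notes, and coordinates came from an annotation of it. The aligner, the counter and their versions are likewise not given in the sources used here.

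Estimated counts were rounded, genes were kept with edgeR's default filter (12144 of 18811) and libraries were scaled with TMM factors of 0.844 to 1.20. Diets were compared by edgeR's two-sided quasi-likelihood test (edgeR 4.0.16, R 4.3.3), and p-values were adjusted over all genes by Benjamini-Hochberg, with a threshold of 0.05. edgeR's common dispersion gave a biological coefficient of variation of 0.407. CPM values are TMM-scaled, log2 CPM used a prior count of 2, and 95% intervals came from the fold change, its F statistic and its degrees of freedom. The fit was tested on simulated data, but the outcome is not given here and lends no support to the results.

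No libraries of one diet were duplicates, since chi-square values over degrees of freedom between them ran from 42.5 to 350. Members and gene lists were chosen with earlier results of these data known. All members were named. Each related list was represented by its called genes or, with none, its gene of smallest p, marker lists by at most 2 genes of smallest p, and likeness by the 2 nearest genes averaging 5 CPM or more. The genes gpx-8 and prx-11 were not analysed here. A planned comparison of protein and promoter sequences was not run. Alternatives were other filters, scalings and tests (DESeq2 1.42.0, limma 3.58.1 with voom or on log2(FPKM + 1) and log2(FPKM + 0.1) with at least 1 FPKM in 3 libraries), a replicate block and each library left out. Alternatives added after seeing the data were the catalases added into 1 row and DESeq2 with each library left out, for members, related genes and all genes.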

Additional observations from a re-analysis of the deposited data

How the results depend on the processing

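With 3 libraries a diet and a biological coefficient of variation of 0.407, fold changes as small as those of most members could not be told from the spread. The default low-count filter kept sod-5 from being tested. Without that filter edgeR tested all 9 members and called 0, where it called 0% of 17609 genes. The largest counting error of a library was 14.9% of the count for sod-3 and 10.7% for sod-4, and at most 4.84% for the other tested members. Genes called over the whole table were 0 with edgeR, 946 with DESeq2 and 2 with the replicate block, and with 1 library left out they ranged from 0 to 2574 over edgeR and DESeq2, with 1852 in edgeR and 2574 in DESeq2 without purE replicate 1. In edgeR, 0 were called when any other library was left out. In DESeq2 the number was 365, 303 and 992 for leaving out BW25113 replicates 1, 2 and 3, and 259 and 519 for purE replicates 2 and 3. Members called were 0 to 1 when 1 library was left out, the 1 being ctl-3 in DESeq2 without BW25113 replicate 3 (-0.99). Related redox genes called were 0 in edgeR, 1 in DESeq2 and 0 to 6 with 1 library left out, with 1 (trx-3) in edgeR and 6 in DESeq2 without purE replicate 1, where DESeq2 called 20.1% of all genes.

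Over the fits that left out 1 library, log2 fold changes ranged from -0.20 to 0.31 for sod-1, 0.34 to 0.53 for sod-2, -0.14 to 0.89 for sod-3, 0.12 to 0.52 for sod-4, -0.60 to 0.083 for ctl-1, -0.74 to 0.089 for ctl-2, -1.01 to -0.48 for ctl-3, -0.42 to 0.064 for prdx-2 and -0.75 to -0.05 for the summed catalases. Signs changed only there, except for prdx-2, at 0.0295 in limma-voom and 0.026 with the replicate block. Changed signs in edgeR were those of sod-1 without BW25113 replicate 3 (-0.20), sod-3 without BW25113 replicate 2 (-0.13), ctl-1, ctl-2 and prdx-2 without BW25113 replicate 1 (the upper ends given), and prdx-2 also without BW25113 replicate 2 (0.041) and purE replicate 2 (0.016). In DESeq2, sod-1 changed sign without BW25113 replicate 3 (-0.18) and purE replicate 3 (-0.0241), sod-3 without BW25113 replicate 2 (-0.14), ctl-1 (0.0496), ctl-2 (0.0568) and prdx-2 (0.0317) without BW25113 replicate 1, and prdx-2 without BW25113 replicate 2 (0.0304). The cause was not tested. The FPKM fits moved the median over all genes from 0.03 to -0.11 and -0.13, and no member changed sign in them. Same-numbered libraries did not deviate together, with correlations of -0.14, -0.17 and 0.14 across genes for numbers 1, 2 and 3, and not every library was most like its own number. The block changed no call among members and took the unadjusted p of sod-2 to 0.118.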

Other observations

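Within the matrix oxidases and peroxidases, 6 of 7 tested genes had positive log2 fold changes, against 51.6% of all genes, and none was called by edgeR with all 6 libraries. The genes given here were named after their values were seen. The haem peroxidase gene skpo-1, the 1 negative gene, stood at 60.0, 73.2 and 63.8 CPM on BW25113 and at 87.8, 21.2 and 43.7 CPM on purE, with purE replicate 1 the highest and purE replicate 2 the lowest library. Its relative skpo-2 had the reverse order in these 2 libraries, at 4.21, 2.17 and 0.877 CPM on BW25113 and 0.515, 22.1 and 2.84 CPM on purE. In edgeR their adjusted p-values were 0.668 and 0.453. Without purE replicate 1, DESeq2 called skpo-1 lower and skpo-2 higher (adjusted p 0.0233 and 0.0243), where it called 20.1% of all genes. A further relative, skpo-3, was called higher by DESeq2 when BW25113 replicate 3 was left out (adjusted p 0.0233), where it called 7.73% of all genes.

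The groups did not overlap for doxa-1 and bli-3, with every purE library above every BW25113 library, as for 13.1% of all genes tested. The oxidase maturation factor gene doxa-1 stood at 2.46, 2.31 and 2.21 CPM on BW25113 and at 2.68, 7.81 and 3.74 CPM on purE, with a log2 fold change of 1.02 ± 0.46 and an edgeR adjusted p of 0.319. The dual oxidase gene bli-3 stood at 3.09, 3.46 and 4.01 CPM on BW25113 and at 4.26, 7.76 and 5.35 CPM on purE, with a log2 fold change of 0.72 and an edgeR adjusted p of 0.376. Of the others, tsp-15 had a log2 fold change of 0.65 with an edgeR adjusted p of 0.478, and duox-2 had too few counts to pass the default filter.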
